A study of Mus musculus with 6 samples.

Results

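The Dlk1-Dio3 region of mouse chromosome 12 is an imprinted cluster, and 5 of its transcripts are described here in the E14.5 lens: the maternally expressed noncoding RNAs Meg3, Rian and Mirg and the paternally expressed coding transcripts Dlk1 and Rtl1. The transcripts were chosen by their CPM (gene counts per library, scaled by TMM to a common size) in libraries from Gata3 CKO and control lenses, maternal noncoding against paternal coding, so their values in that comparison are a description and no test of them is given. Counts were held for 4 of the 5 among the 13024 genes of the deposited table, 3 maternal and 1 paternal. Rtl1 was not analysed here. All 4 passed the filter on low counts, 10 or more counts in 3 or more libraries. Meg3, Rian and Mirg were higher in each CKO library than in any control library, 1.75-fold, 2.03-fold and 1.77-fold in the fit, and Dlk1 was well above the control libraries in 1 CKO library only.

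Imprinted genes are transcribed mainly from the chromosome inherited from a single parent. In this region, DNA methylation of an intergenic control element on the paternal copy goes with expression of the protein-coding genes Dlk1, Rtl1 and Dio3, and the unmethylated maternal copy gives rise to the long noncoding RNAs. Meg3 is a nuclear long noncoding RNA, Rian is a host of C/D box small nucleolar RNAs and miRNAs, Mirg is a host of a large miRNA cluster, and Dlk1 encodes a transmembrane relative of the Notch ligands that is known from muscle, adipose and endocrine progenitors. The deposited values are counts per gene without allele information, so "maternal" and "paternal" name the known expression of each gene, and which allele was read in these lenses was not measured.

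Each library was made from polyA-selected RNA of 10 pooled lenses from 5 embryos at E14.5, on a mixed background of C57BL/6 and FVB, with 3 pools in each group. The CKO embryos were Gata3 f/f; Pax6-Cre/+, in which Cre, under the ocular epithelial enhancer and P0 promoter of Pax6, removes Gata3 exon 4 in lens and corneal precursors and is also found in scattered cells of the retinal neuroectoderm. The control pools are named wild type in the labels, Gata3 f/wt without Cre in the paper's Results and Gata3 f/f in its Methods. Only the CKO embryos carried Cre, so the presence of Cre and the loss of Gata3 cannot be told apart. The labels do not say which parent passed on the floxed alleles or the transgene.

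Libraries held between 15157230 and 18811104 counts. All 9 lens markers had counts in every library, and their sum was 43026 to 124074 CPM in control and 41991 to 55862 CPM in CKO. Control replicate 2 stood apart, with 16.5% of its counts on crystallin genes against 5.47% to 9.31% in the others, and with all 9 retina markers at their lowest. CKO replicate 2 stood apart in having 9 of 10 mesenchyme markers at their highest. Gata3 itself, as a whole-gene count that includes any transcript lacking exon 4, was 202, 386 and 156 in control and 910, 1064 and 894 in CKO. This count does not check the deletion, which the study examined at exon level, and the groups are those of the labels.

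The small RNAs encoded in the noncoding hosts are shown first, because the host counts below are the only reading of these loci here: polyA-selected libraries do not measure mature miRNAs. RefSeq (GRCm38.p6) places 19 miRNA hairpins with 35 mature sequences inside the GENCODE spans of the 3 hosts on their own strand, 2 hairpins in Meg3, 3 in Rian and 14 in Mirg. Of these hairpins, 6 lie wholly in an annotated exon of the host, 8 wholly in an intron and 5 across an exon edge. Both Meg3 hairpins are exonic and all 3 Rian hairpins are intronic. Capitals mark the seed, bases 2 to 8, which pairs with target mRNAs, and letters run 5′ to 3′. From Meg3 and Rian, the following are examples of what each host encodes.
mmu-miR-770-5p: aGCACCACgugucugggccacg
mmu-miR-770-3p: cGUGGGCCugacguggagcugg
mmu-miR-370-3p: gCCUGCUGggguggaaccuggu
mmu-miR-341-5p: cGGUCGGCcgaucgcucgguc

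The Mirg sequences are shown because several of them resemble each other in the seed. The 35 mature sequences hold 34 distinct seeds, and the only seed found in 2 of them is that of miR-453 and miR-496a-5p. Seeds of miR-409-5p and miR-410-5p differ from this shared seed at 1 base each.
mmu-miR-453: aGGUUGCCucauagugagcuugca
mmu-miR-496a-5p: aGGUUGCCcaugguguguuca
mmu-miR-409-5p: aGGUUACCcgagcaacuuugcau
mmu-miR-410-5p: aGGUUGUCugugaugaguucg

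In another Mirg group, the seed of miR-154-3p differs at 1 base from that of miR-485-3p and at 1 base from that of miR-369-3p. A pair that joins hosts is miR-341-5p of Rian and miR-412-5p of Mirg, whose seeds also differ at 1 base.
mmu-miR-154-3p: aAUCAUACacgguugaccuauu
mmu-miR-485-3p: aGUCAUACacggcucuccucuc
mmu-miR-369-3p: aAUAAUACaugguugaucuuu
mmu-miR-412-5p: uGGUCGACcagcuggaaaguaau

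Meg3 (ENSMUSG00000021268.17, chr12:109541001-109571726, forward strand, mm10) is annotated as a lincRNA with 18089 exon bases. Its TMM-normalized level was 344, 352 and 291 CPM in control replicates 1, 2 and 3, and 601, 672 and 450 CPM in CKO replicates 1, 2 and 3. Every CKO library was above every control library, and the lowest CKO value exceeded the highest control value by more than the whole range of the control libraries. The group levels were 329 ± 33.2 CPM in control and 574 ± 113 CPM in CKO (SD, n = 3), a log2 fold change of 0.80 with a standard error of 0.16 and a 95% interval of 0.42 to 1.19. Omitting single libraries gave log2 fold changes from 0.68 to 0.95. Intervals here and for the transcripts below are not adjusted for the number of genes. Because this contrast chose the transcripts, the intervals are descriptions and not tests. The antisense gene Gm26906 overlaps Meg3, and the strand setting of the counting is not given in the sources used here, so reads of the pair may not be separated.

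Rian (ENSMUSG00000097451.10, chr12:109603940-109661716, forward strand) starts 62.9 kb downstream of the Meg3 start, has 18234 exon bases and holds 13 annotated small nucleolar RNA genes. It stood at 232, 253 and 166 CPM in the control libraries and at 439, 507 and 376 CPM in the CKO libraries. The groups did not overlap, and replicate 3 was the lowest library of both. Rian had the largest log2 fold change of the 4 transcripts, 1.02 with a standard error of 0.18 and a 95% interval of 0.59 to 1.46, from 217 ± 45.4 to 441 ± 65.2 CPM (SD, n = 3). Omitting single libraries gave 0.86 to 1.16. No annotated antisense gene overlaps Rian.

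Mirg (ENSMUSG00000097391.8, chr12:109729764-109749460, forward strand) starts 189 kb downstream of the Meg3 start and was the scarcest of the 4. Its raw counts were 87, 90 and 72 in control and 116, 225 and 175 in CKO. Normalized, these are 5.51, 6.34 and 4.02 CPM in control and 7.52, 11.4 and 9.11 CPM in CKO, again without overlap. In proportion, the gap between the highest control and the lowest CKO library was narrower than for Meg3 and Rian. The log2 fold change was 0.83 with a standard error of 0.25 and a 95% interval of 0.24 to 1.42 and ran from 0.66 to 0.99 when single libraries were omitted. The antisense gene Gm24321 lies within Mirg, with the same limit on strand as for Meg3.

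Dlk1 (ENSMUSG00000040856.17, chr12:109452823-109463336, forward strand) lies on the other side of Meg3, with its start 88.2 kb upstream. Its level was 26.6, 32.7 and 19.8 CPM in control and 20.0, 87.7 and 32.8 CPM in CKO. The groups overlapped: CKO replicate 1 lay within the control range, CKO replicate 3 lay just above its top, and CKO replicate 2 alone was far above it. The fitted log2 fold change of 0.83 was close to that of Meg3 and Mirg, but its standard error was 0.53 and its 95% interval ran from -0.44 to 2.11. Without CKO replicate 2 the log2 fold change of Dlk1 was 0.0060, and omitting any other library gave 0.66 to 1.19.

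**Figure D1:**
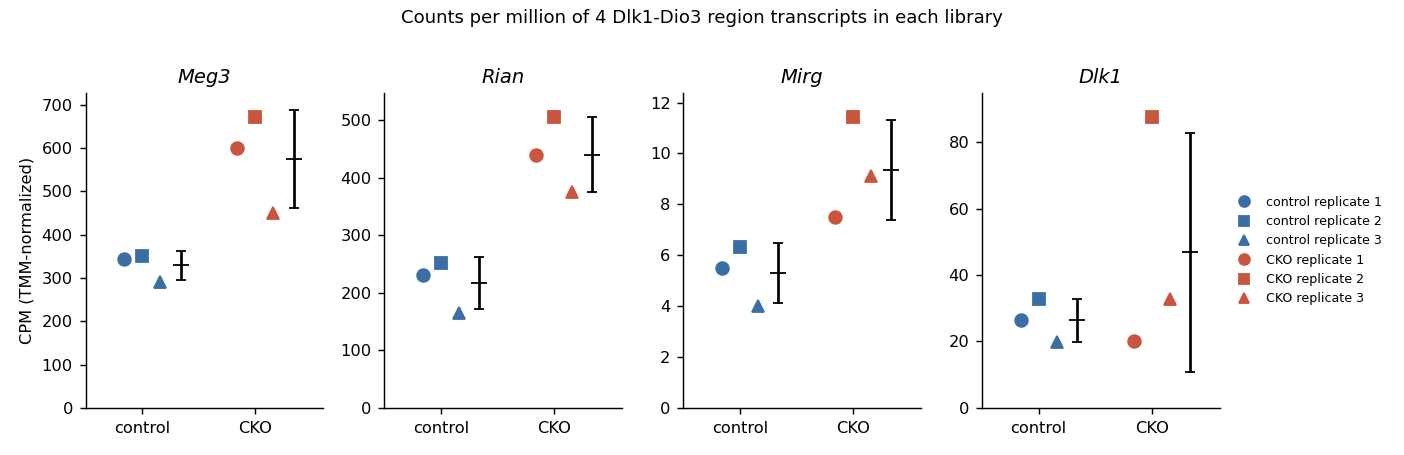
CPM (vertical axis, from 0, separate scale for each gene) of Meg3, Rian, Mirg and Dlk1 in the 3 control (blue) and 3 CKO (red) libraries, with the replicate number shown by the symbol. The black bars give mean ± SD. For Meg3, Rian and Mirg all red points lie above all blue points, and for Dlk1 only CKO replicate 2, at 87.7 CPM, is clearly above the control libraries.

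For 3 of the 4 transcripts with counts, Meg3, Rian and Mirg, every CKO library lay above every control library, an arrangement found for 473 of the 12879 genes tested, or 3.67%. Because this contrast chose the transcripts, nothing is read from their count. Of all genes tested, 97 had a larger log2 fold change than Meg3, 47 a larger one than Rian, 89 a larger one than Mirg and 87 a larger one than Dlk1. By edgeR's quasi-likelihood test with Benjamini-Hochberg adjustment, 0 genes, or 0.00%, were called at 0.05 in these libraries. Without adjustment, 457 genes had p under 0.05, and 1.30% of the genes tested were higher and 2.24% lower in CKO. DESeq2's Wald test called 85 genes (29 higher and 56 lower in CKO), and limma voom called 0.

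Within each group the members varied together across pools, some pairs more closely than others. In control, Meg3, Rian, Mirg and Dlk1 all had the same order, replicate 2 highest and replicate 3 lowest. In CKO, all 4 were highest in replicate 2, with replicate 3 lowest for Meg3 and Rian and replicate 1 lowest for Mirg and Dlk1. Pearson's r over the 6 libraries was computed with each group's mean taken off the log2 values. It was 0.86 between Meg3 and Rian, 0.80 between Rian and Mirg and 0.88 between Mirg and Dlk1. For Meg3 it was 0.52 with Mirg and 0.52 with Dlk1, and for Rian it was 0.59 with Dlk1. These points share 6 libraries and their scaling, and the values are descriptions without a test. Of the noncoding RNAs, Mirg had the highest r with Dlk1.

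Since ratios within a library need no scaling between libraries, the balance between the maternal RNAs and Dlk1 was computed from raw counts per kb of annotated exon. The log2 ratio of the sum of Meg3, Rian and Mirg to Dlk1 was 2.79, 2.56 and 2.88 in control and 4.04, 2.10 and 3.01 in CKO. The control libraries were close to each other, and the CKO libraries lay above, below and just above them. The group means were 2.74 ± 0.16 and 3.05 ± 0.97 (SD, n = 3), a difference of 0.31 that is smaller than the spread between the CKO pools. Its direction rested on single libraries, being -0.19 without CKO replicate 1 and 0.78 without CKO replicate 2. For Meg3 over Dlk1 alone, the log2 ratio was 2.02, 1.75 and 2.20 in control and 3.23, 1.26 and 2.10 in CKO.

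Among the CKO libraries, the ratios between noncoding RNAs varied less than those to Dlk1, with an SD of 0.10 for Rian to Meg3, 0.35 for Mirg to Meg3 and 0.26 for Mirg to Rian against 0.97 for the maternal sum to Dlk1. In control these SDs were 0.17, 0.19 and 0.04 against 0.16, so that only Mirg to Rian varied less there. The log2 ratio of Rian to Meg3 was -0.58, -0.49 and -0.82 in control and -0.46, -0.42 and -0.27 in CKO, a mean difference of 0.25 with all CKO libraries above all control libraries. For Mirg to Rian it was -4.07, -3.99 and -4.04 in control and -4.55, -4.15 and -4.05 in CKO. Here the groups overlapped, with CKO replicate 1 the lowest library. Together the 4 transcripts took 0.0606%, 0.0559% and 0.0496% of all counts in control and 0.109%, 0.134% and 0.0912% in CKO, and Dlk1 made up 4.13% to 5.08% of the region's counts in control and 1.88% to 6.86% in CKO.

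**Figure D2:**
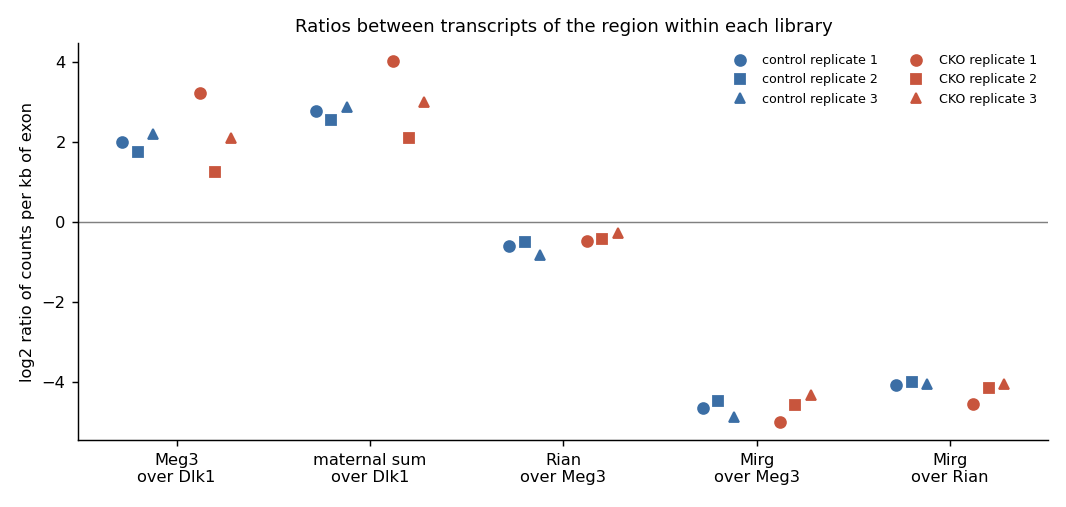
Log2 ratios of counts per kb of exon (vertical axis) for 5 pairs of transcripts, each point a library, control in blue and CKO in red. The ratio of the maternal sum to Dlk1 runs from 2.10 to 4.04 among the CKO libraries, and the CKO libraries lie closer together in the ratios among the noncoding RNAs.

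Because the transcripts differ in length, their levels are compared with each other here per length. The shares of counts given above are not corrected for length. Lengths here and in the ratios above are from GENCODE, whereas fragments were counted per RefSeq gene, so they may not match the bases counted. Per kb of annotated exon, the control level was 18.2 ± 1.83 CPM per kb for Meg3, 11.9 ± 2.49 for Rian, 4.66 ± 1.14 for Dlk1 and 0.73 ± 0.16 for Mirg (SD, n = 3). In CKO it was 31.7 ± 6.26 for Meg3, 24.2 ± 3.58 for Rian, 8.28 ± 6.35 for Dlk1 and 1.28 ± 0.27 for Mirg. The order was Meg3, Rian, Dlk1 and Mirg in each group, and the libraries of neighbours in this order overlapped only for Meg3 and Rian in CKO. The order of Meg3 and Rian depends on the length used. With the longest annotated transcript (14548 bases for Meg3 and 8089 for Rian), a length chosen after seeing the data, Rian stood at 26.8 ± 5.61 and Meg3 at 22.6 ± 2.28 CPM per kb in control, and Rian was above Meg3 in all 6 libraries.

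In their levels, the neighbours Begain, Dio3 and Dio3os did not share the pattern of the noncoding RNAs. Dio3, the intronless gene of the deiodinase that inactivates thyroid hormone, had 22.1, 12.2 and 31.6 CPM in control and 26.7, 22.2 and 27.2 CPM in CKO. Its divergently transcribed neighbour Dio3os had 27.7, 13.7 and 39.6 CPM in control and 25.3, 22.2 and 28.0 CPM in CKO. Begain, which encodes a postsynaptic scaffold-associated protein, had 20.0, 12.3 and 22.7 CPM in control and 18.3, 23.6 and 20.0 CPM in CKO. For all 3 genes the groups overlapped, with control replicate 2 the lowest library. Where control replicate 2 was the highest control library for Meg3, Rian, Mirg and Dlk1, it was the lowest for these neighbours. Within groups, r was -0.84 between Rian and Dio3 and 0.996 between Dio3 and Dio3os. Per kb of exon, the log2 ratio of Dio3 to Dio3os was -0.59, -0.44 and -0.60 in control and -0.19, -0.27 and -0.31 in CKO. All CKO libraries lay above all control libraries in this ratio, a mean difference of 0.29 that was not tested.

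Across the wider region, none of the 13 flanking genes tested, those starting within 1 Mb of the span from Dlk1 to Mirg together with these 3 neighbours, was called by edgeR, DESeq2 or limma voom, and 0 had an unadjusted p under 0.05. Of these, 5 had a positive and 8 a negative log2 fold change, with a median of -0.03, beside a median of 0.0019 over all genes tested. The 2 highest were Dio3 (0.21, standard error 0.32) and Begain (0.17, standard error 0.24). The 2 lowest were Dync1h1, the heavy chain of cytoplasmic dynein (-0.17, standard error 0.10), and Dio3os (-0.11, standard error 0.35).

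**Figure D3:**
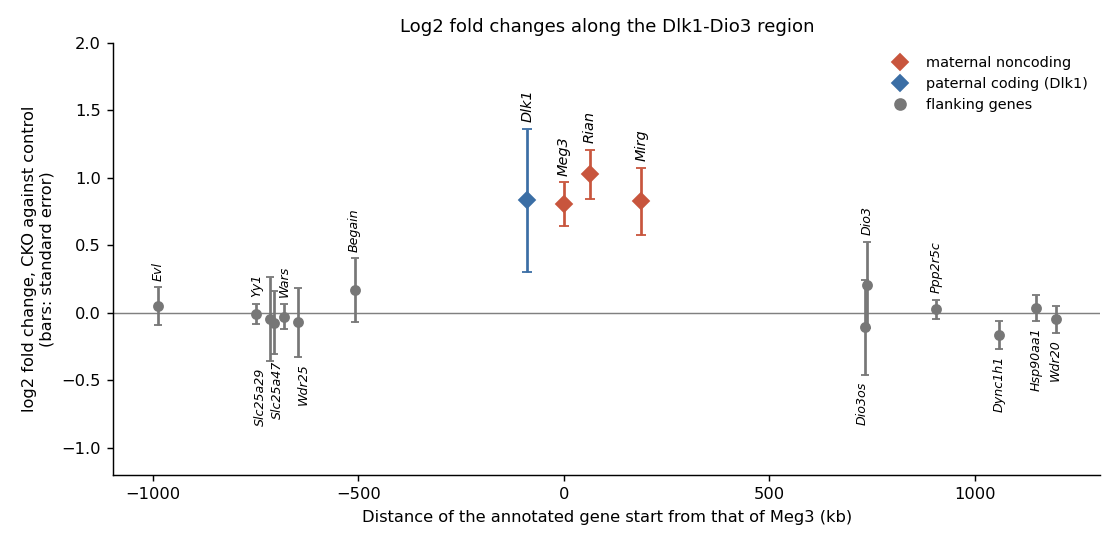
Log2 fold change of CKO against control (vertical axis, bars give the standard error) against the distance of each gene start from the Meg3 start in kb. The 3 maternal RNAs (red) and Dlk1 (blue) lie between 0.80 and 1.02, and the 13 flanking genes (grey) between -0.17 and 0.21. The red and blue transcripts were chosen by this comparison, and without CKO replicate 2 the value of Dlk1 was 0.0060.

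Promoter windows at the RefSeq starts of Meg3, Rian and Dlk1 are shown for their sequence. Their part in the levels was not tested, nor was whether each RefSeq start marks a promoter used in these lenses. Windows run from 250 bases before to 50 bases after the RefSeq start on the forward strand (GRCm38.p6), and capitals mark matches to 3 motifs, searched on both strands. These were GATA sites (AGATAA or AGATAG or TGATAA or TGATAG), the TATA box TATAAA and the cAMP response element TGACGTCA, which are present in 29.8%, 13.6% and 1.79% of all 32851 promoter windows of the same length. A match is a run of letters and is not evidence of binding.
Meg3, chr12:109540746-109541045: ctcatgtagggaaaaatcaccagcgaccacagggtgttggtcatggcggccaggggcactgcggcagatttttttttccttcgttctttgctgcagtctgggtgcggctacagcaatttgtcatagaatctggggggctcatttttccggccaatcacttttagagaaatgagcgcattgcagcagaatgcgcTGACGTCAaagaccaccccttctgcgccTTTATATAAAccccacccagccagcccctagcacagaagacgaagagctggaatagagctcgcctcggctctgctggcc
Rian, chr12:109603695-109603994: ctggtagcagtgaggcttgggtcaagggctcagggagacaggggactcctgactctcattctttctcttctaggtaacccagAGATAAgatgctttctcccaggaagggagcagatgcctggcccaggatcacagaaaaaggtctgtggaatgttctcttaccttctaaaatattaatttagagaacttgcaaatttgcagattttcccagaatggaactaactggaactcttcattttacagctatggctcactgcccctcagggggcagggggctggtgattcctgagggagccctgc
Dlk1, chr12:109452573-109452872: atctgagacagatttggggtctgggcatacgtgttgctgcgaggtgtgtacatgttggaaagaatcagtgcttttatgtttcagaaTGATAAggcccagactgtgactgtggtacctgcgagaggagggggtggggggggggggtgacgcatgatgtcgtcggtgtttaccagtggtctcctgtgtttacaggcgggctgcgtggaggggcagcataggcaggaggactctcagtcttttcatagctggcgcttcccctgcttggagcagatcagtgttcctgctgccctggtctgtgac

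The Meg3 window held the cAMP response element at -57 to -50 and overlapping TATAAA matches on the 2 strands between -29 and -20, with 0 GATA sites. Rian had 1 GATA site, AGATAA at -168 to -163, and Dlk1 had 1, TGATAA at -164 to -159. No such letters were found in the Mirg window (chr12:109734731-109735030) or in the window of a second RefSeq start of Meg3 4397 bases downstream of the GENCODE start. The Rian window held 0 CG pairs, against 13 for Meg3, 9 for Dlk1, 10 for Mirg and a median of 7 over all windows. The RefSeq start of Mirg lies 5217 bases inside the GENCODE gene, so its window holds the mature sequences of miR-668-5p, miR-668-3p and miR-485-3p.

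Markers of other tissues moved with Dlk1. The sum of the 10 mesenchyme markers was 311 to 2315 CPM in control and 351 to 4028 CPM in CKO, with none of the 10 at 0. It was highest in CKO replicate 2, the library in which Dlk1 stood at 87.7 CPM. The next highest sum, 2315 CPM, was in control replicate 1, where Dlk1 was at 26.6 CPM, in the middle of the control libraries. Of the 8 muscle markers, 5 had counts here, and 4 of these were highest in CKO replicate 2. Their sum was 82.6 to 182 CPM in control and 58.1 to 258 CPM in CKO, with CKO replicate 2 again the highest library. In a bulk sample, fewer cells of a type and less RNA per cell cannot be told apart.

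With the group means taken off, r of Dlk1 over the 6 libraries was 0.83 with the mesenchyme sum, 0.98 with the muscle sum, 0.86 with the surface ectoderm sum and -0.44 with the retina sum. For Meg3 these values were 0.60, 0.52, 0.66 and -0.68, for Rian 0.65, 0.65, 0.86 and -0.88, and for Mirg 0.77, 0.93, 0.95 and -0.70. Other marker sums moved with the transcripts within groups as well. In the order Meg3, Rian, Mirg and Dlk1, r was 0.72, 0.84, 0.86 and 0.79 with the vessel sum, 0.60, 0.91, 0.93 and 0.67 with the macrophage sum, and -0.60, -0.87, -0.77 and -0.49 with the neuronal sum. With the lens, pigment cell, blood and pituitary sums it ran from 0.14 to 0.95. Dio3 and Dio3os went the other way, with r of 0.97 and 0.98 to the retina sum. The mesenchyme and muscle sums of CKO replicates 1 and 3 were within the control range or below it. With CKO replicate 2 and control replicate 1 left out together, chosen after seeing the data, the log2 fold change was 0.72 for Meg3, 0.97 for Rian, 0.70 for Mirg and 0.022 for Dlk1. Without control replicate 2, the library with the high crystallin share, it was 0.87 for Meg3, 1.16 for Rian, 0.99 for Mirg and 1.03 for Dlk1. The part of the marked tissues in the levels of the region was not tested, and the transcripts were chosen by these same values.

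The other marker sums did not separate the groups. Retina markers summed to 1497 to 3189 CPM in control and 2210 to 2979 CPM in CKO, and neuronal markers to 377 to 1236 and 748 to 1045 CPM. Vessel markers summed to 245 to 305 CPM in control and 216 to 261 CPM in CKO, and macrophage markers to 51.9 to 94.3 and 48.3 to 62.6 CPM, so for both the CKO libraries reached lower. Of the 4 pituitary markers, included because Dlk1 is known from that gland, 2 had counts here, with a sum of 1.95 to 3.66 CPM in control and 2.40 to 6.82 CPM in CKO, again highest in CKO replicate 2.

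**Figure D4:**
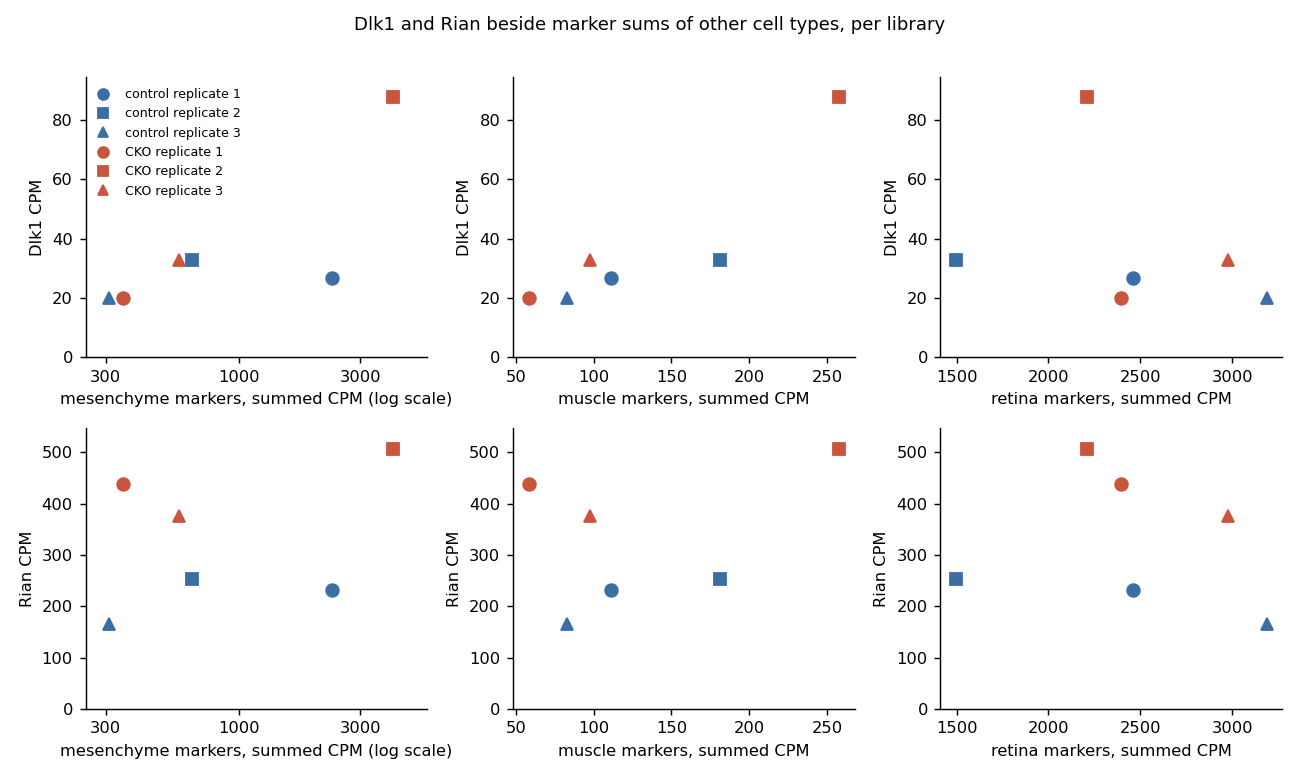
CPM of Dlk1 (upper row) and Rian (lower row) on the vertical axes against the summed CPM of mesenchyme (log scale), muscle and retina markers, each point a library (blue, control; red, CKO). Dlk1 is highest in the library with the highest mesenchyme and muscle sums, and the 3 CKO points of Rian (376 to 507 CPM) lie above all control points.

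The genes with levels most like those of Meg3 over the 6 libraries were sought among 11601 genes with a mean of at least 5 CPM. They were Bace1, the beta-secretase gene (r = 0.99), Gng12, a G protein gamma subunit (0.98), the transporter-family gene Slc12a9 (0.98), Rbm7, an RNA-binding protein (0.98), and the tetraspanin Tspan18 (0.96). Bace1 had 49.2, 47.4 and 43.5 CPM in control and 70.9, 71.3 and 59.6 CPM in CKO. Over the same libraries r with Meg3 was 0.97 for Rian, 0.88 for Mirg, 0.57 for Dlk1 and 0.10 for Dio3. The genes most like Dlk1 were Synpo (0.97), Slc44a1 (0.97), Tarbp2 (0.97), Gga2 (0.97) and Zfp703 (0.96), of which Synpo, an actin-associated protein, had 22.6, 24.7 and 16.7 CPM in control and 19.3, 36.3 and 22.8 CPM in CKO. With 6 points and this many genes, high values of r arise in number, and they are given to place the pattern only.

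The regulators of imprinting were measured for comparison. Zfp57 and Zfp445 are the zinc-finger proteins that protect methylated imprints, Trim28 and Setdb1 act with them, and Dnmt1 and Uhrf1 copy methylation at replication. Of 19 such genes tested, 15 had a positive and 4 a negative log2 fold change, the median was 0.04, and 0 were called by edgeR, DESeq2 or limma voom, with 0 under an unadjusted p of 0.05. The 2 highest were Aff3 (0.24, standard error 0.25) and Uhrf1 (0.14, standard error 0.16). The 2 lowest were Dnmt3b (-0.09, standard error 0.15) and Nono (-0.03, standard error 0.08). Their groups all overlapped.

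Genes that process the small RNAs of Rian and Mirg were compared in the same way. Among 15 genes, which included Drosha, Dgcr8 and Dicer1 of the miRNA pathway and Fbl, Nop56, Nop58 and Snu13 of the C/D box particles, 11 log2 fold changes were positive and 4 negative, with a median of 0.05 and a range of -0.20 to 0.12. The 2 highest were Fbl (45.5, 41.4 and 45.3 CPM in CKO against 35.0, 43.6 and 42.7 in control) and Ago4. The 2 lowest were Ago2 (-0.20, standard error 0.10) and Dicer1 (-0.12, standard error 0.09). None was called by edgeR, DESeq2 or limma voom, and 0 had an unadjusted p under 0.05.

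Imprinted genes elsewhere in the genome were compared in 2 fixed lists, named maternally and paternally expressed. Whether each listed gene is imprinted in the lens, and from which parent it is expressed there, was not measured. Of 9 genes tested in the maternally expressed list, 7 had a positive log2 fold change and the median was 0.05. The 2 highest were Dcn, a matrix proteoglycan gene that is also among the mesenchyme markers (0.57, standard error 1.21), and Igf2r (0.35, standard error 0.22). The 2 lowest were the cell cycle inhibitor Cdkn1c (-0.64, standard error 0.30) and H19 (-0.29, standard error 0.33). Cdkn1c had 511, 981 and 434 CPM in control and 387, 450 and 401 CPM in CKO, so the groups overlapped through CKO replicate 2 and control replicate 3. Of the 9, Cd81, which was picked after its values were seen, was the only gene with an unadjusted p under 0.05 (log2 fold change 0.26) and the only gene with every CKO library above every control library. Of all genes tested, 1.30% were higher in CKO with such a p by edgeR, and 3.67% had every CKO library above every control library.

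Of 23 genes tested in the paternally expressed list, 13 had a positive and 10 a negative log2 fold change, with a median of 0.04. The 2 highest were Usp29 (0.46, standard error 0.16) and Nap1l5 (0.40, standard error 0.31). The 2 lowest were the growth factor gene Igf2 (-0.73, standard error 0.36) and Mest (-0.35, standard error 0.13). Usp29 and Mest had an unadjusted p under 0.05 by edgeR, found for 1.30% of all genes tested in the higher and 2.24% in the lower direction. In Usp29, with 8.62, 7.61 and 10.2 CPM in control and 13.1, 12.1 and 11.2 CPM in CKO, every CKO library lay above every control library, as for 3.67% of all genes tested. In Mest, with 995, 1007 and 798 CPM in control and 654, 755 and 780 CPM in CKO, every CKO library lay below every control library, as for 4.69% of all genes tested. None of the imprinted genes elsewhere was called by edgeR, DESeq2 or limma voom.

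Relatives of the coding members were looked at in place of Rtl1 and beside Dlk1. Rtl1 belongs to a family derived from a sushi-ichi retrotransposon. From a fixed list drawn up for this family, 8 genes were tested, with 7 positive values and a median of 0.05. Whether each listed gene, such as Zcchc18, belongs to the family was not checked. The highest was Zcchc5 (0.41, standard error 0.65), followed by Cxx1a (0.10, standard error 0.13), and the lowest were Peg10 (-0.08, standard error 0.14) and Cxx1b (0.0081, standard error 0.15). None of the 8 was called by edgeR, DESeq2 or limma voom, and 0 had an unadjusted p under 0.05.

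Dlk1 is an atypical ligand of Notch receptors. A fixed list of 19 genes tested, most of them of that pathway, gave 10 positive and 9 negative log2 fold changes. The median was 0.05 and ran from -0.05 to 0.09 with each library left out. The 2 highest were Fn1 (0.26, standard error 0.44) and the Notch target Hes5 (0.19, standard error 0.24). Fn1, the fibronectin gene, is a matrix gene and not a Notch pathway gene. It had 724 CPM in CKO replicate 2 and 255 to 500 CPM in the other libraries. The 2 lowest were the receptor gene Notch4 (-0.55, standard error 0.16) and Rbpj, the DNA-binding partner of Notch (-0.35, standard error 0.22). Notch4, at 18.9, 27.7 and 23.6 CPM in control and 15.9, 17.4 and 14.7 CPM in CKO, was lower in every CKO library and was the only gene of the list with an unadjusted p under 0.05. Its adjusted p was 0.979 by edgeR's quasi-likelihood test, and 0 of the 19 were called by edgeR, DESeq2 or limma voom. Over all genes tested, 4.69% had every CKO library below every control library. By edgeR, 2.24% were lower in CKO with an unadjusted p under 0.05.

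**Figure D5:**
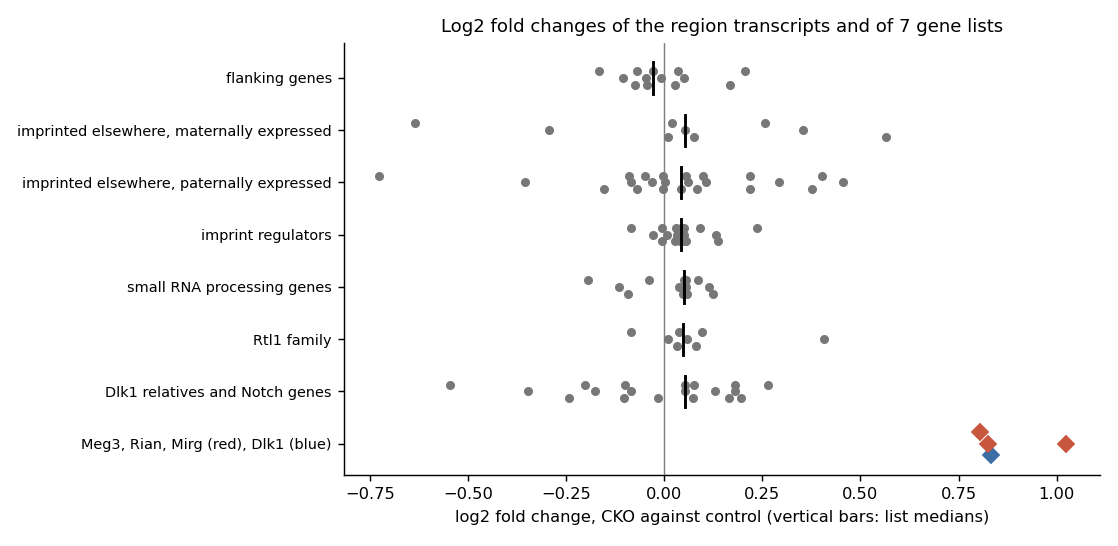
Log2 fold changes of CKO against control (horizontal axis) for each gene of 7 lists (grey points, list medians as black bars) and, in the bottom row, for Meg3, Rian and Mirg (red) and Dlk1 (blue). The list medians lie between -0.03 and 0.05, and the 4 region transcripts between 0.80 and 1.02. The region transcripts were chosen by this comparison, the lists were not tested against them, and without CKO replicate 2 the value of Dlk1 was 0.0060.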

How the data were processed

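RNA-Seq counts of 6 lens libraries, 3 control and 3 CKO, were analysed. Per the labels and the paper's Methods, the authors aligned paired-end reads of polyA-selected, stranded libraries to mm10 with TopHat2 2.0.13 and counted fragments per RefSeq gene with HTSeq 0.6.1 (processing tools per the submitters' notes; strand and overlap options not given in the sources used here). The deposited values are these raw counts, for genes with a mean FPKM over 1 in either group. The titles number the CKO samples 1 to 3 and the title numbers are used; their descriptions use other numbers.

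Counts were normalized by TMM and tested across all genes in edgeR 4.0.16 (R 4.3.3), by a robust quasi-likelihood fit with Benjamini-Hochberg adjustment at 0.05, over 12879 genes that reached 10 counts in 3 or more libraries. Standard errors and 95% intervals are from that fit, without adjustment for the number of genes or for the choice of the members. Correlations used log2(CPM + 1). p-values measure the spread between pools. With 3 pools a group, this spread and not depth limits the precision, other than for genes with low counts, such as Mirg, Nap1l5 and Zcchc5. DESeq2 1.42.0 and limma 3.58.1 (voom), other normalizations and filters, a replicate block and each library left out were alternatives. The scripts were tested on simulated data. Positions and exon lengths were taken from GENCODE release M21 (GRCm38, which is mm10), where 61 genes were unmatched, and plots from matplotlib 3.10.9 in Python 3.11.15 with pandas 2.3.3.

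The members, the gene lists and the rule for named genes were chosen with earlier results of these data known. The rule names all members, the targeted gene, the 2 highest and 2 lowest log2 fold changes and every gene called in each list, flanking genes near the span, and the 5 genes most like Meg3 and Dlk1. Cd81 is outside this rule.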

Additional observations from a re-analysis of the deposited data

How the results depend on the processing

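Of 196 values computed under alternatives, 187 differed from the reported value by less than the spread between replicates or were the same count. The number of genes called, 0 in the reported fit, was 85 by DESeq2 and 1 with library totals only, and 0 to 8 with each library left out (8 without control replicate 2 and 1 without control replicate 3). For Dlk1, the log2 fold change was 0.0060 to 1.19 with each library left out, lowest without CKO replicate 2, and 0.022 without CKO replicate 2 and control replicate 1 together, a choice made after seeing the data. The log2 fold changes of Meg3, Rian and Mirg stayed positive under every alternative run. Library totals alone moved the median of all genes by 0.10, and with it the medians of the small RNA processing list to 0.15 and of the paternally expressed list to 0.14; the latter was 0.13 without control replicate 3 and ran from 0.0022 to 0.13 with each library left out. With each library left out, the median of the Dlk1 relatives and Notch genes ran from -0.05 without control replicate 2 to 0.09 without control replicate 3, and changed sign also for the imprint regulators (-0.02 to 0.08), the Rtl1 family (-0.0063 to 0.07) and the flanking genes (-0.03 to 0.04). The cause of these differences was not tested.

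The correlation of deviations between pools with equal title numbers was -0.52, 0.088 and 0.50, without a common sign, and the main fit left the pools unpaired. Pairing by the numbers in the descriptions was not examined. Whether pools shared a litter or a batch was not tested. With the replicate block the count of calls was again 0, and the log2 fold change was 0.79 for Meg3, 1.04 for Rian, 0.83 for Mirg and 0.60 for Dlk1.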
